A study of Mus musculus with 48 samples.

Results

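Type I interferon-stimulated genes are described here through 9 genes, Ifit1, Ifit3, Isg15, Irf7, Oasl2, Rsad2, Usp18, Ifi27, and Bst2, chosen by gene symbol from the 56748 genes of the deposited expression table. All 9 were found, and all 9 were among the 15637 genes that passed the filter on low counts. They were measured by poly-A RNA sequencing of whole tibialis anterior muscle, a muscle of the lower hindlimb, in 48 libraries. The mice were males of 39 to 55 weeks of age. WT mice were floxed at Foxp1 without Cre according to the description of the design, and the sample labels list them as C57BL/6J. FoxP1SkmKO mice were homozygous for the floxed Foxp1 allele and carried ACTA1-Cre, which is active in muscle fibers, so that other cells of the muscle kept the gene. KPC mice received KPC pancreatic cancer cells by injection into the pancreas, and control mice received saline by the same route and bore no tumor. Mice of each genotype, with and without tumor, were kept in constant darkness after entrainment to a cycle of 12 h of light and 12 h of darkness. Muscles were collected every 4 h at 6 circadian times (CT), from CT18 to CT38. The 24 groups held 2 mice each, which left 12 mice per genotype and condition over the 6 times. Whether the libraries kept strand information was not stated, so reads from a gene and from an overlapping gene on the opposite strand cannot be told apart.

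Type I interferons are secreted proteins that cells release when they sense viral nucleic acid or their own misplaced DNA. They bind the receptor pair Ifnar1 and Ifnar2, whose kinases Jak1 and Tyk2 activate a complex of transcription factors that holds Irf9 and binds the interferon-stimulated response element of its target genes. The products block viral replication, raise antigen presentation, and feed back on the receptor. Type II interferon, Ifng, acts through another receptor on a related set of genes, in which guanylate-binding and immunity-related GTPases and the MHC class I pathway are prominent.

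The 9 genes cover the steps of this response. Ifit1 and Ifit3 encode proteins that bind foreign RNA and limit its translation, Oasl2 encodes a relative of the oligoadenylate synthetases, and Rsad2 encodes viperin, which makes a chain-terminating nucleotide. Bst2 encodes tetherin, which holds budding virions at the cell surface. Isg15 encodes a ubiquitin-like modifier, and Usp18 encodes the protease that removes it and also blocks signaling at Ifnar2. Irf7 encodes a transcription factor that amplifies interferon production, and Ifi27 encodes a small membrane protein. In the deposited annotation (mm39), Ifit1 lies at chr19:34618271-34627409 and Ifit3 at chr19:34560931-34566131, both on the plus strand of the same chromosome. Isg15 lies at chr4:156283912-156285253 and Irf7 at chr7:140842619-140846394, both on the minus strand. Oasl2 (chr5:115034997-115050295) and Usp18 (chr6:121222865-121247876) lie on the plus strand. Rsad2 (chr12:26492745-26506451, minus) and Ifi27 (chr12:103400470-103406498, plus) share a chromosome, and Bst2 lies at chr8:71986899-71990100 on the minus strand. Genes on the opposite strand overlapped Ifit1 (Ifit1bl2), Isg15 (Gm46878), Irf7 (Phrf1), Usp18 (Gm44148), and Ifi27 (Ifi27l2a), and Ifit3 has the near-identical paralog Ifit3b, so the values of these 6 genes may hold reads of a neighbor or copy.

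The promoters of the members were read as a description. The rule that chose the members used gene symbols and no sequence. It named targets of the response described above, so matches to its element were likely from the choice. The window ran from 250 bases before to 50 bases after the annotated start of the canonical transcript (GENCODE annotation on GRCm39, the assembly that mm39 names). The letters GAAANNGAAA, the core of the interferon-stimulated response element, were searched on both strands. They occurred in 7 of the 9 windows (77.8%), compared with 835 of the 21757 windows of protein-coding genes (3.84%). The windows of Irf7 and Oasl2 held no match to these letters. The match nearest the start is shown for each of the other 7 genes with 10 bases on either side, on the strand of the gene and 5′ to 3′, with the match in capitals:
Ifit1: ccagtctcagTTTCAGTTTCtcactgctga
Ifit3: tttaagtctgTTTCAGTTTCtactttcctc
Rsad2: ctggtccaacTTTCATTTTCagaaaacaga
Isg15: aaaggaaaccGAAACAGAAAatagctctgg
Usp18: ggatctagggGAAAACGAAAgcttggcggt
Ifi27: gagagctgggGAAATAGAAAcctatcttat
Bst2: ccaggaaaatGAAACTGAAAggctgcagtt

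These stretches lie at chr19:34618194-34618223 (Ifit1, plus strand), chr19:34560797-34560826 (Ifit3, plus), chr12:26506552-26506581 (Rsad2, minus), chr4:156285322-156285351 (Isg15, minus), chr6:121222796-121222825 (Usp18, plus), chr12:103400382-103400411 (Ifi27, plus), and chr8:71990221-71990250 (Bst2, minus). Ifit1, Ifit3, and Rsad2 carried the letters on the opposite strand, so that they read as TTTCNNTTTC, and the match of Ifit1 and that of Ifit3 were the same 10 letters. The first letter of the match lay between 126 bases (Bst2) and 25 bases (Ifi27) before the start. Isg15 held 3 overlapping matches, and Ifit1, Ifit3, Usp18, and Bst2 held 2 each. The same letters occurred in 18 of 48 windows of other interferon-stimulated genes (37.5%), in 9 of 15 windows of the GTPases linked to Ifng (60%), and in 1 of 10 windows of MHC class I presentation genes (10%). TTCNNNGAA, the core of the gamma-activated sequence, occurred in 1 member window, that of Bst2 (11.1%), in 7 of the 15 GTPase windows (46.7%), and in 8.82% of all windows. Such matches describe the letters and do not show binding.

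Each library held between 14480867 and 20787784 counts on genes (median 16602091.5), and the medians of the 4 combinations of genotype and condition lay between 16431858 and 16987200. Tests take mice, not reads, as replicates. Foxp1, the targeted gene, did not pass the test as lower in FoxP1SkmKO muscle. Its values in FPKM (fragments per kilobase of gene, scaled to the depth of the library) ran from 0.430 through a median of 0.615 to 0.971 in WT control mice and from 0.430 through 0.585 to 0.642 in FoxP1SkmKO control mice, and the ranges overlapped (log2 difference -0.11, SE 0.07, adjusted p = 0.459 by edgeR's quasi-likelihood test, Benjamini-Hochberg adjusted). In KPC mice the log2 difference of Foxp1 was -0.20 (SE 0.07, adjusted p = 0.246 by the same test). The values sum over the whole gene and over all cells of the muscle, so the deleted part was not resolved. The summed level of 8 muscle fiber markers lay between 120100 and 162220 CPM (counts scaled to library size) in the 48 libraries, and that of 7 macrophage markers between 18.9 and 110.7 CPM. T and NK cell markers summed to at most 5.73 CPM and B cell markers to at most 0.958 CPM. In whole muscle, fewer cells of a type and less RNA per cell cannot be told apart.

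Libraries of 2 groups touched the results. The WT control mice at CT26 held the highest values of several genes and the lowest Foxp1 of their arm, at 0.430 and 0.511 FPKM against 0.529 to 0.971 at the other 5 times. The second FoxP1SkmKO control mouse at CT18 had the highest mean standardized level of the 9 genes of all 48 libraries. Averages are therefore also given without CT26 and without that mouse, and both of these choices were made after the data were seen.

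All 9 genes were expressed at low to moderate levels in muscle. Across the 48 libraries, the median level per length was 12.4 FPKM for Ifi27, 7.86 for Bst2, 1.77 for Ifit3, 1.09 for Rsad2, 1.05 for Isg15, 0.939 for Irf7, 0.624 for Ifit1, 0.591 for Oasl2, and 0.574 for Usp18. Ifi27 stood above Bst2 in 45 libraries, Bst2 above Ifit3 in all 48, Ifit3 above Rsad2 in 45, and Irf7 above Ifit1 in 43. The neighbors lower in the order were not separated beyond their spread, since Rsad2 stood above Isg15 in 23 of 48 libraries, Isg15 above Irf7 in 27, Ifit1 above Oasl2 in 23, and Oasl2 above Usp18 in 26. The mean count per library ran from 14.6 for Isg15 to 314.5 for Ifi27. The SD between mice of the same group, on the log2 CPM scale, was 0.15 for Ifi27 and between 0.27 (Oasl2) and 0.48 (Ifit3) for the other 8 genes, compared with a median of 0.20 over all genes tested. The SD that counting alone would give was 0.38 for Isg15, beside an observed 0.47, and 0.19 for Ifit3, beside 0.48. SDs do not add, and a constant added to the counts damped the observed SD at low counts. The first value is therefore not a share of the second.

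**Figure D1:**
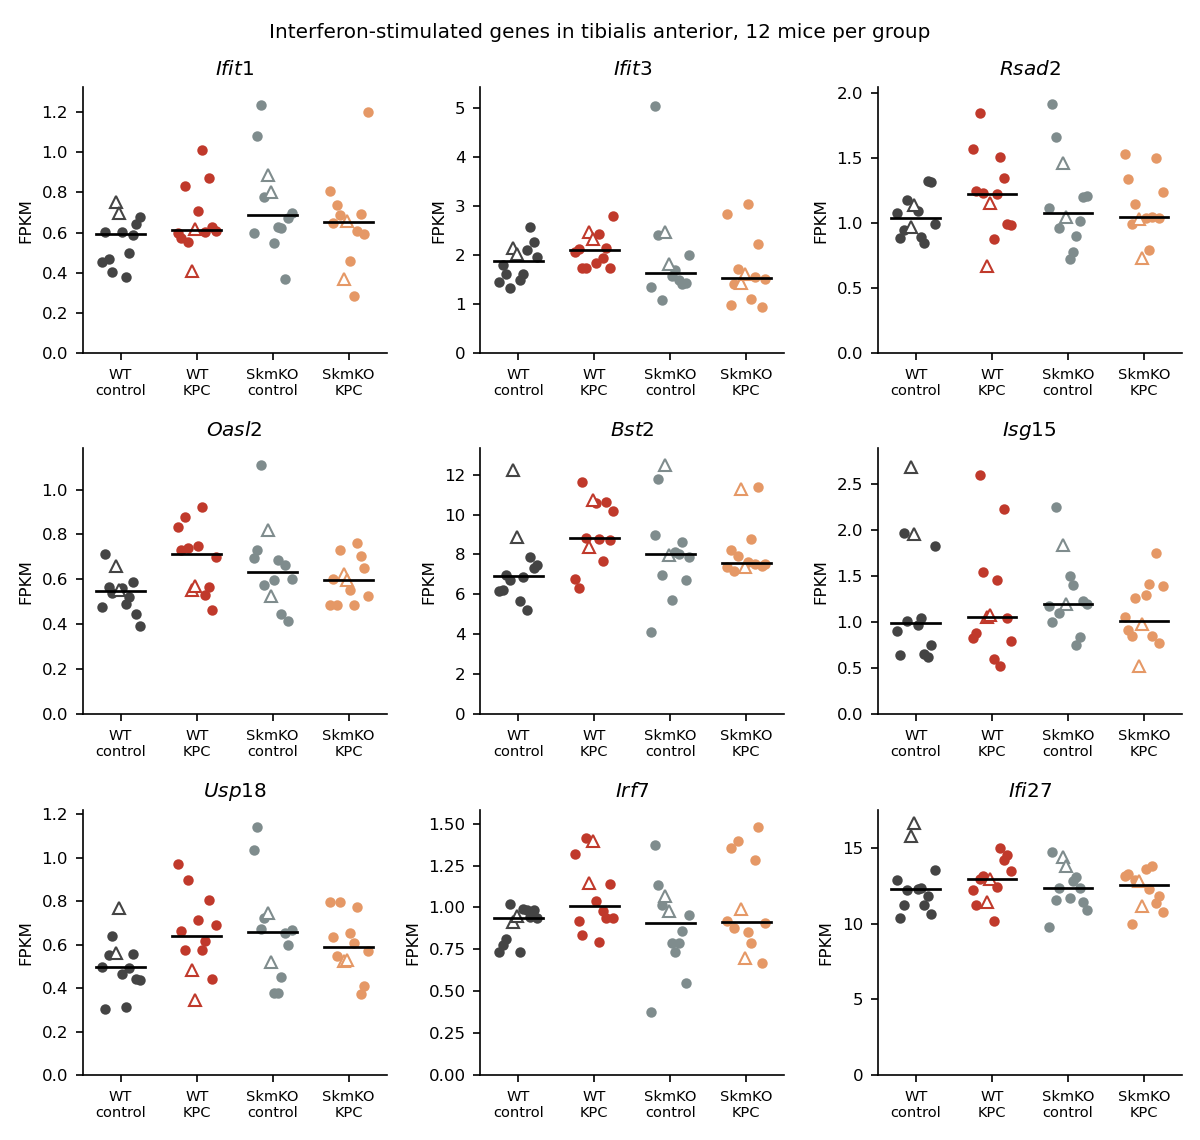
FPKM of the 9 genes (vertical axis, from 0, with its own scale in each panel) in every library of the 4 combinations of genotype and condition, 12 mice each. Points are mice, open triangles are mice at CT26, and bars are medians. The 4 groups overlap in every panel, and 1 FoxP1SkmKO control mouse stands at 5.05 FPKM in the panel of Ifit3.

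To determine whether the response moved with the tumor in WT muscle, KPC and control mice were compared as the average of the differences at the 6 times. None of the 9 genes passed edgeR's quasi-likelihood test (Benjamini-Hochberg adjusted p under 0.05), and 1.79% of all genes did. All 9 fitted differences were above 0, with a median log2 value of 0.24, against a median of 0.0016 over all genes tested. At an unadjusted p under 0.05, 3 of the 9 were counted, compared with 15.2% of all genes, and DESeq2 called 0 and counted 3. Without CT26 the median of the 9 was 0.26, and without the second FoxP1SkmKO control mouse at CT18 it was 0.23, with 0 calls in both cases.

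Among the antiviral effectors, Oasl2 had 0.394 FPKM in the lowest WT control mouse, 0.547 at the median, and 0.712 in the highest, against 0.463, 0.715, and 0.923 in WT KPC mice. The ranges overlapped, and 10 of 12 KPC mice stood above the control median. The log2 difference was 0.32 (SE 0.11, 95% interval 0.09 to 0.55, unadjusted p = 0.00696, adjusted p = 0.134 by edgeR's quasi-likelihood test, Benjamini-Hochberg adjusted). Bst2 ran from 5.21 through 6.92 to 12.2 FPKM in WT control mice and from 6.30 through 8.81 to 11.6 FPKM in WT KPC mice, and again 10 of 12 KPC mice lay above the control median. Its highest value came from a control mouse at CT26, so that the ranges overlapped. The log2 difference of Bst2 was 0.33 (SE 0.12, interval 0.09 to 0.56), with an adjusted p of 0.146 by edgeR's test that fell to 0.00870 when no filter on low counts was applied. Rsad2 (0.847, 1.04, and 1.32 FPKM in control mice; 0.670, 1.23, and 1.85 in KPC mice) had a log2 difference of 0.18 (SE 0.12). The values of the KPC mice spread beyond both ends of the control range.

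Neither gene of the RNA-binding proteins had an unadjusted p under 0.05. Ifit1 had 0.377, 0.594, and 0.753 FPKM as the lowest, median, and highest value in WT control mice and 0.407, 0.613, and 1.01 in WT KPC mice. Ifit3 had 1.33, 1.88, and 2.57 against 1.73, 2.09, and 2.81. For both genes the ranges lay largely on top of each other, with 9 and 8 of 12 KPC mice above the control median. The log2 differences were 0.24 (SE 0.15) and 0.19 (SE 0.18), with adjusted p of 0.481 and 0.667 in edgeR's test.

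Of the modifier and its protease, Usp18 had the largest fitted difference of the 9 genes. It ran from 0.304 through 0.496 to 0.771 FPKM in WT control mice and from 0.344 through 0.641 to 0.971 FPKM in WT KPC mice. The ranges overlapped, with 9 of 12 KPC mice above the control median, and the log2 difference was 0.36 (SE 0.14, interval 0.08 to 0.65, adjusted p = 0.190 by edgeR's quasi-likelihood test, Benjamini-Hochberg adjusted). Isg15, the modifier itself, had 0.621, 0.990, and 2.69 FPKM in control mice and 0.526, 1.05, and 2.60 in KPC mice. Its difference was 0.02 with a wide interval, from -0.42 to 0.46.

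Irf7, the amplifying transcription factor, ran from 0.736 through 0.939 to 1.02 FPKM in WT control mice and from 0.796 through 1.01 to 1.41 FPKM in WT KPC mice. Its difference was 0.25 (SE 0.14, adjusted p = 0.406 in edgeR's test), and 7 of 12 KPC mice lay above the control median. The fitted difference was above 0 at each of the 6 times, with 0.0015 as the lowest. Ifi27, the most abundant member, had 10.4, 12.3, and 16.7 FPKM against 10.2, 13.0, and 15.004, with a difference of 0.03 and the narrowest interval of the 9, from -0.09 to 0.15.

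**Figure D2:**
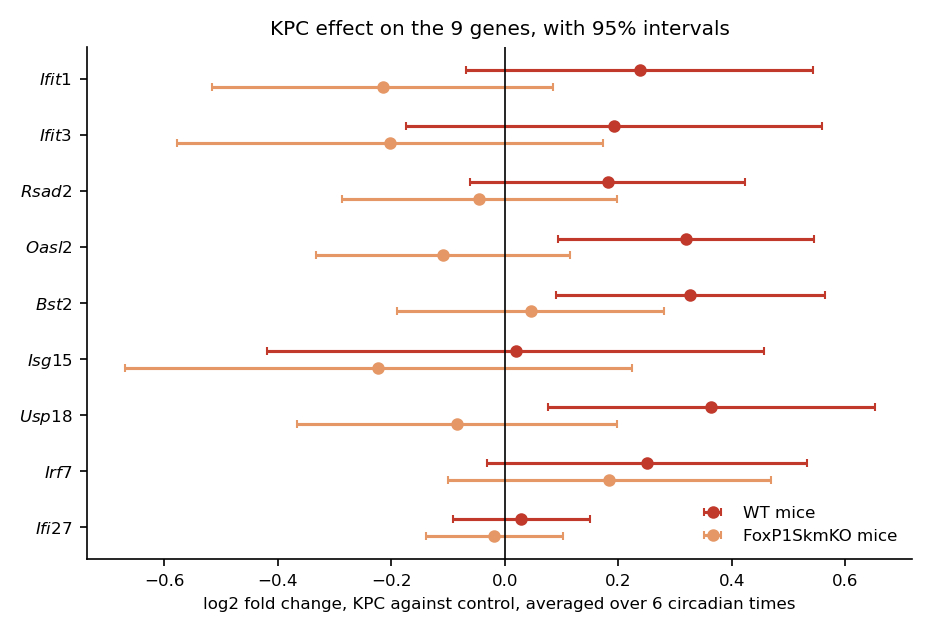
Log2 fold change of KPC against control mice, averaged over the 6 circadian times, with 95% intervals, for the 9 genes in WT and FoxP1SkmKO mice. In WT mice all 9 points lie above 0 and 3 intervals (Oasl2, Bst2, Usp18) exclude it, while in FoxP1SkmKO mice 2 points lie above 0 and all 9 intervals include it.

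In FoxP1SkmKO mice, the same comparison called none of the 9 genes with edgeR, where 0.428% of all genes were called, and counted none at an unadjusted p under 0.05, where 12.4% of all genes were counted. DESeq2 also called 0 and counted 0. The fitted differences were above 0 for 2 genes, Irf7 (0.18, SE 0.14) and Bst2 (0.05, SE 0.12), and the median was -0.08. Oasl2 had 0.417, 0.632, and 1.11 FPKM in FoxP1SkmKO control mice and 0.485, 0.599, and 0.762 in FoxP1SkmKO KPC mice. Usp18 had 0.376, 0.659, and 1.14 against 0.375, 0.588, and 0.795, and Bst2 had 4.11, 8.00, and 12.5 against 7.17, 7.57, and 11.4. In each case the control mice held both the higher median and the highest value, and the ranges overlapped. Ifit1 (0.367, 0.686, and 1.23 FPKM; 0.285, 0.652, and 1.198) and Ifit3 (1.07, 1.63, and 5.05; 0.933, 1.53, and 3.03) gave log2 differences of -0.22 (SE 0.15) and -0.20 (SE 0.18). Without the second FoxP1SkmKO control mouse at CT18, which left 1 mouse in that group under the shared spread, Ifit3 stood at 0.006, 5 of the 9 differences were above 0, and the median was 0.006. In that fit Irf7 had a difference of 0.39 (SE 0.12, unadjusted p = 0.00278) but an adjusted p of 0.173 in edgeR's test. Without CT26, 4 of the 9 differences were above 0, with a median of -0.05.

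The difference between the genotypes was tested directly, as the KPC effect in WT mice minus that in FoxP1SkmKO mice. EdgeR called 0 of the 9 genes and 0 of all 15637 (0%). All 9 values were above 0, with a median of 0.28, and 3 of the 9 had an unadjusted p under 0.05, compared with 6.52% of all genes, while DESeq2 called 0 and counted 1. Those 3 were Oasl2 at 0.43 (SE 0.16, interval 0.11 to 0.75), Usp18 at 0.45 (SE 0.20, interval 0.04 to 0.85), and Ifit1 at 0.45 (SE 0.21, interval 0.02 to 0.88), each with an adjusted p of 0.764. Without the second FoxP1SkmKO control mouse at CT18, 7 of the 9 values were above 0, the median was 0.18, and 2 had an unadjusted p under 0.05. Without CT26, 8 were above 0, with a median of 0.33. A different response of these genes in the 2 genotypes was therefore not detectable with 12 mice in each combination of genotype and condition, and a missed threshold does not show that the genotypes responded alike.

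Between control mice, which carried no tumor, 7 of the 9 genes had a higher fitted level in FoxP1SkmKO than in WT muscle, and none passed edgeR's test, where 3.44% of all genes did. The median log2 difference was 0.13, and 3 of the 9 had an unadjusted p under 0.05, compared with 17.2% of all genes (DESeq2 called 0 and counted 3). These were Ifit1 at 0.37 (SE 0.15), Usp18 at 0.36 (SE 0.14), and Oasl2 at 0.25 (SE 0.11), with adjusted p of 0.174, 0.168, and 0.219. Of the 12 FoxP1SkmKO control mice, 10 stood above the WT control median for Ifit1 and 9 for Usp18 and Oasl2. This comparison shares its WT control mice with the KPC comparison in WT mice, so the 2 are not independent. Without the second FoxP1SkmKO control mouse at CT18 the median was 0.04, with 6 of 9 above 0, and without CT26 it was 0.20. Between KPC mice, all 9 fitted levels were lower in FoxP1SkmKO muscle, by a median of -0.12 on the log2 scale, with the largest at -0.34 (SE 0.18, adjusted p = 0.499) for Ifit3. EdgeR called none of the 9 there and counted none at an unadjusted p under 0.05 (DESeq2 gave 0 and 0), where 0.32% of all genes were called and 10.8% counted. Without CT26 the median was -0.13, with 1 of the 9 above 0.

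At single times, 2 KPC mice were compared with 2 control mice of the same genotype. EdgeR called none of the 9 genes in any of the 12 comparisons. DESeq2 called none either, but it gave no adjusted p in 42 of the 108 tests of a member, spread over 7 comparisons, so that these could not be called. The test called 7.17% of all genes at WT CT26, 0.0064% at WT CT30, 0.0256% at WT CT38, 0.0192% at FoxP1SkmKO CT18, 0.0384% at FoxP1SkmKO CT26, 0.0064% at FoxP1SkmKO CT38, and 0% at the other 6 points. In WT mice, the number of the 9 genes with a fitted difference above 0 was 9 at CT18, 9 at CT22, 2 at CT26, 8 at CT30, 7 at CT34, and 6 at CT38. In FoxP1SkmKO mice, it was 3, 1, 0, 6, 8, and 5. CT26 was thus the time with the fewest in either genotype. The share of all genes above 0 at each time was not counted, so a shift of these genes and a general one cannot be told apart. The 9 genes also vary together, so that their signs are not independent. At an unadjusted p under 0.05, edgeR counted 1, 2, 2, 3, 1, and 0 of the 9 from CT18 to CT38 in WT mice, where 6.23%, 4.77%, 21.4%, 5.21%, 6.06%, and 9.82% of all genes were counted. In FoxP1SkmKO mice it counted 0, 0, 0, 1, 1, and 0, where the shares were 13.8%, 4.69%, 8.9%, 8.95%, 4.05%, and 8.05%.

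The lowest adjusted p at a single time belonged to Ifi27 at CT26. The WT control mice had 15.8 and 16.7 FPKM there and the WT KPC mice 11.4 and 12.9, so that the 2 pairs did not overlap. With 2 mice on each side such a gap is weak evidence, and the share of all genes with one was not counted. The log2 difference was -0.42 (SE 0.14, adjusted p = 0.0706 by edgeR's quasi-likelihood test, Benjamini-Hochberg adjusted; 0.0586 in DESeq2). Isg15 had 2.69 and 1.95 FPKM in the WT control mice at CT26 and 1.06 and 1.07 in the KPC mice, a log2 difference of -1.13 (SE 0.51, adjusted p = 0.190). Usp18 differed in the other direction at WT CT18, with 0.499 and 0.304 FPKM in control mice and 0.971 and 0.663 in KPC mice, a log2 difference of 1.03 (SE 0.34, unadjusted p = 0.00468, adjusted p = 0.685 in edgeR's test). Whether the KPC effect differed among times was tested as well. None of the 9 genes passed in WT mice (0.883% of all genes did) or in FoxP1SkmKO mice (0%). At an unadjusted p under 0.05, 2 were counted in WT mice (12.2% of all genes), Ifi27 (adjusted p = 0.227) and Usp18 (adjusted p = 0.355), and none in FoxP1SkmKO mice (9.76%), while DESeq2 called 0 in both and counted 1 and 0, with no adjusted p for 8 of the 9 genes in WT mice.

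Differences among the 6 times were then tested within each combination of genotype and condition. In WT control mice, 1 of the 9 genes passed, Ifi27 (F = 3.82, adjusted p = 0.0440 by edgeR's quasi-likelihood test, Benjamini-Hochberg adjusted), where 18.7% of all genes did, and Ifi27 and Isg15 had an unadjusted p under 0.05, where 31.2% of all genes did. The members' shares were no larger than these backgrounds. DESeq2 also called Ifi27, with an adjusted p of 0.0357. The call was lost with RLE scaling, which left 0 of the 9 genes called, and it was made in 24 of the 48 fits that each left out a library. The 2 mice at CT26 stood at 15.8 and 16.7 FPKM, and the 10 mice at the other times lay between 10.4 and 13.6 FPKM. The same 2 mice held 12.2 and 8.87 FPKM of Bst2, against 5.21 to 7.87 at the other times, and 0.753 and 0.697 FPKM of Ifit1, against 0.377 to 0.678. Isg15 reached 2.69 and 1.95 FPKM in them, against 0.621 to 1.97, and its adjusted p was 0.0645. These 2 libraries also stood apart from their arm in Foxp1, as given above, and over all genes tested. Their median correlation with the other libraries of the arm, on log2 CPM, was 0.974 and 0.979. The other 10 WT control libraries had 0.982 to 0.984. The part of these departures in the values of the members was not tested.

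In FoxP1SkmKO control mice, none of the 9 genes passed, where 6.4% of all genes did, and 2 had an unadjusted p under 0.05, where 21.8% of all genes did. The closest was Usp18, with an adjusted p of 0.0533. DESeq2 called 0 and counted 2, but gave no adjusted p for Usp18 (unadjusted p = 0.00708), Isg15, and Ifit1. Its values in the 2 mice of each time were 1.03 and 1.14 FPKM at CT18, 0.671 and 0.723 at CT22, 0.744 and 0.521 at CT26, 0.377 and 0.376 at CT30, 0.451 and 0.653 at CT34, and 0.6001 and 0.666 at CT38. CT18 lay above and CT30 below every other time without overlap, and the share of all genes with such gaps was not counted. In KPC mice, edgeR called none of the 9 genes among times in WT (11% of all genes) or in FoxP1SkmKO muscle (5.99%), with 0 and 1 at an unadjusted p under 0.05 (26.9% and 20.9% of all genes), and DESeq2 called 0 and counted 0 in both.

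**Figure D3:**
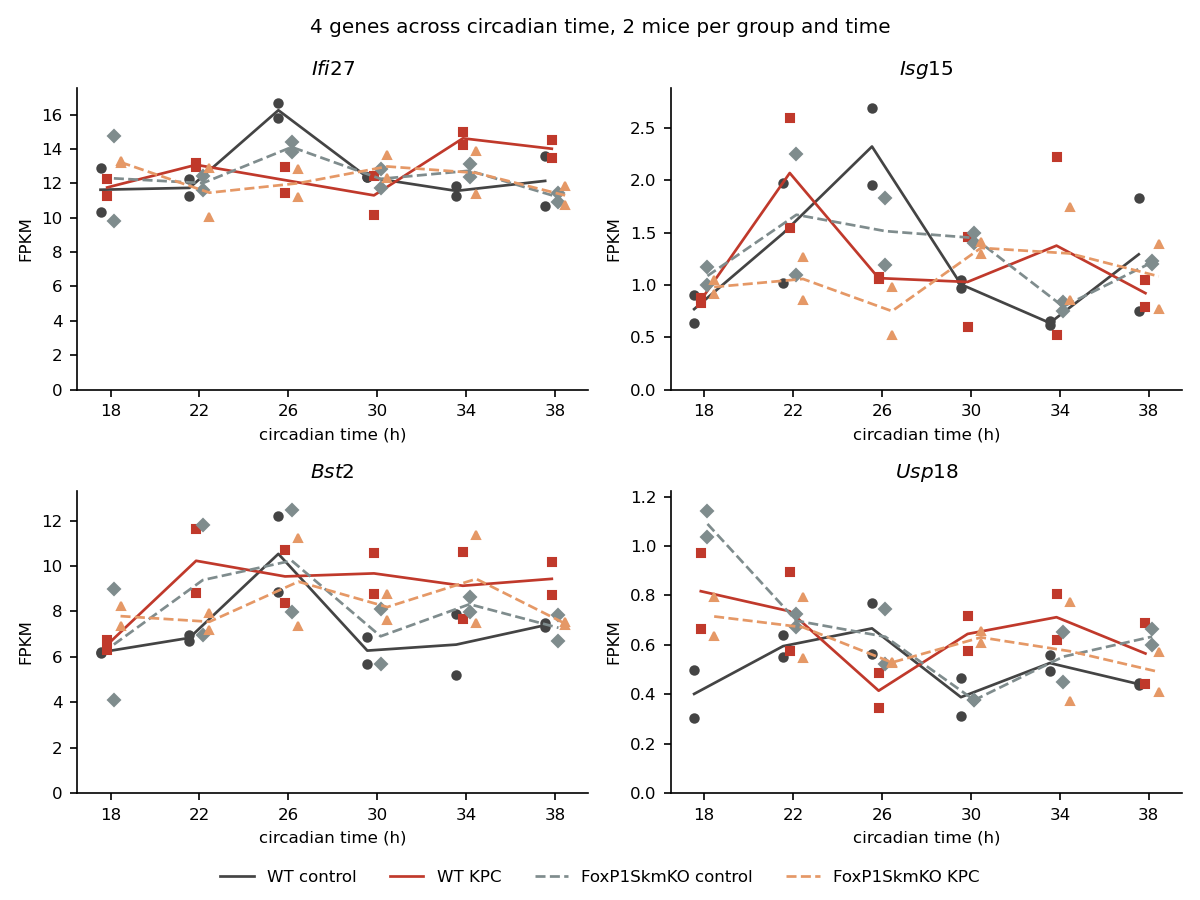
FPKM (vertical axis, from 0) of Ifi27, Isg15, Bst2, and Usp18 against circadian time in hours, for the 4 combinations of genotype and condition. Points are mice, offset sideways for legibility, and lines join the means of the 2 mice at each time. WT control mice stand highest for Ifi27 at CT26, and Usp18 in FoxP1SkmKO control mice goes from 1.03 and 1.14 FPKM at CT18 to 0.377 and 0.376 at CT30.

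To ask for a daily rhythm, 24 h sinusoids were fitted to the 12 FPKM values of each gene in each combination, with a call at an unadjusted F-test p under 0.01, the threshold of the study's methods. Of the 9 genes, 1 was called in 1 combination, Usp18 in FoxP1SkmKO control mice, with a mean of 0.663 FPKM, an amplitude of 0.265 FPKM, a peak at 18.6 h, and an R2 of 0.689. Its F-test p was 0.00523, or 0.190 when adjusted over all genes, and a permutation test that shuffled the 12 mice over the times 100000 times gave p = 0.0024. The share of all genes called there was 4.07%, and it was 4.92% in control and 4.22% in KPC mice of the WT genotype, and 2.63% in FoxP1SkmKO KPC mice. The next lowest was Ifit1 in the same mice (permutation p = 0.0181, not called). FoxP1SkmKO control mice were also left out in turn. The Usp18 call held without either mouse at CT22 or CT38, the first at CT26, or the second at CT34. It was lost without any other of these mice, among them either mouse at CT18. Ifit1 was called without the first mouse at CT18. No time of day was sampled in a second cycle, so that a rhythm and a difference of single collections cannot be told apart.

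The 9 genes varied together between mice of the same group to different degrees. After subtraction of the mean of each of the 24 groups, the 36 pairs of genes had a median Pearson r of 0.25 over the 48 libraries, and 32 of the 36 were above 0. The libraries share 24 group means and the scaling of each library, so these values are given as a description. The closest pairs were Rsad2 with Bst2 (0.63) and Ifit1 with Ifit3 (0.63), and the lowest was Isg15 with Irf7 (-0.13). Usp18 was the least related to the rest, with a median r of 0.08 to the other 8 genes, and Rsad2 (0.40), Bst2 (0.39), and Ifit3 (0.37) were the most related.

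**Figure D4:**
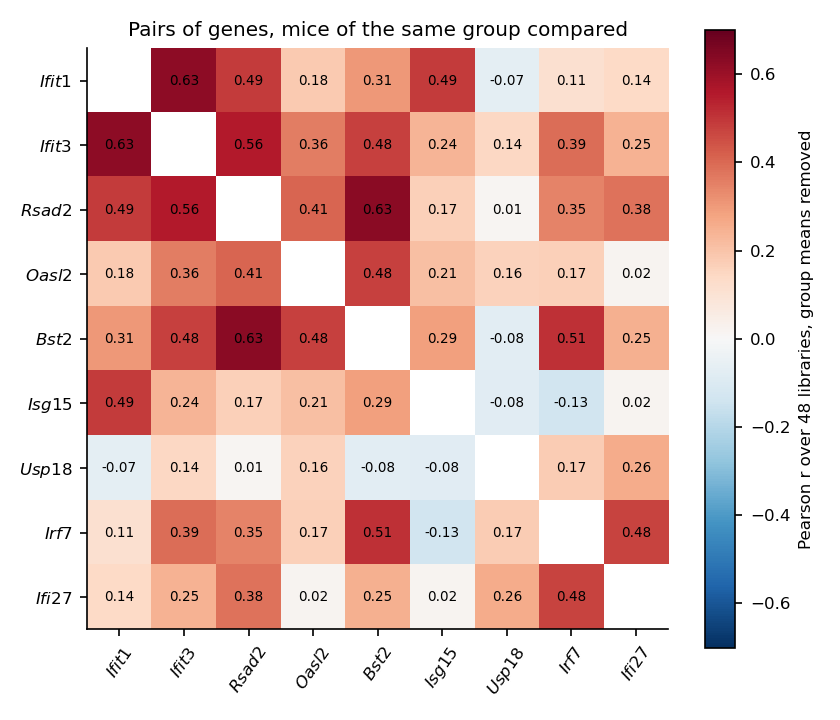
Pearson r between each pair of the 9 genes over the 48 libraries, on log2 CPM with the mean of each of the 24 groups subtracted. Values run from -0.13 (Isg15 with Irf7) to 0.63 (Rsad2 with Bst2), and the row of Usp18 is the palest.

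The highest levels of part of the response came from single FoxP1SkmKO control mice. The first mouse at CT22 had the highest Ifit1 and Oasl2 of the 48 libraries, and the first at CT26 had the highest Bst2. Each ranked among the 6 highest for 5 of the 9 genes. Their mean standardized levels of the 9 genes were 1.33 and 1.16, against 1.46 for the second mouse at CT18. The second FoxP1SkmKO control mouse at CT18 had the highest Ifit3, Rsad2, and Usp18 of all 48 libraries and ranked among the 6 highest for 6 of the 9 genes. It had 5.05 FPKM of Ifit3 where the other mouse of its group had 1.35 and the other 47 libraries reached at most 3.03. It also had 1.37 against 0.374 FPKM of Irf7, 8.98 against 4.11 of Bst2, and 1.92 against 1.11 of Rsad2. Isg15 did not share this, at 0.9998 and 1.17 FPKM in the 2 mice. In the wider response, this mouse held the highest level of the 48 libraries for 9 of 10 MHC class I presentation genes and 9 of 15 GTPases linked to Ifng. Among them were B2m, the light chain of MHC class I (156.1 FPKM, others 46.1 to 98.1), and Iigp1, an immunity-related GTPase (13.3 FPKM, others 0.617 to 5.42). It was highest for 13 of 48 other interferon-stimulated genes, 3 of 10 sensors of RNA and DNA, and 3 of 8 transcription factors of the pathway. For brakes on the pathway it was 1 of 7, and for receptors and kinases 0 of 7. The mouse was picked for its high level of the 9 genes, and how often it ranked first among all genes was not counted. Its summed macrophage markers were 90.8 CPM and its summed T and NK cell markers 5.73 CPM, the highest of the 48 libraries for the latter, where the medians over libraries were 44.1 and 1.38 CPM. Their part in the values of the members was not tested. The label gives no reason to treat it apart.

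The genes whose variation between mice was most like that of the 9 together were sought among the other 15628 genes tested, by the Pearson r with the mean of their standardized values over the 48 libraries after subtraction of group means. Among the 10 closest were Iigp1 (0.81), B2m (0.79), H2-T23 (0.78), H2-K1 (0.77), Irgm1 (0.76), H2-Q4 (0.75), Tgtp2 (0.75), H2-D1 (0.75), and Psmb8 (0.75). The 99th percentile over these genes was 0.49 and the median was -0.002. The mouse just described contributes to each of these values.

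The genes upstream of the 9 were measured in the same libraries. Of 11 interferon genes listed, none passed the filter. Ifna1, Ifna2, Ifna4, Ifna5, Ifne, Ifnl2, and Ifnl3 had no count in any library, and Ifnb1 had 2 counts in 1 library. Ifnk had 4 counts in 3 libraries and Ifnz 3 counts in 2 libraries. Ifng had 8 counts in 6 libraries, with 1 in WT control, 4 in WT KPC, 0 in FoxP1SkmKO control, and 3 in FoxP1SkmKO KPC mice. These are too few to compare the groups. The highest count of any of these genes in a library was 3. The 7 receptor and kinase genes were expressed, and edgeR called none of them for the KPC comparison in WT mice, none at an unadjusted p under 0.05. Jak1 ran from 15.9 through 21.5 to 23.1 FPKM in WT control mice and from 18.0 through 20.4 to 22.3 in WT KPC mice.

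Among the 8 transcription factors of the pathway, 4 rose in WT KPC mice (1.16% of all genes rose), and none was called in FoxP1SkmKO mice. Irf9, the DNA-binding part of the complex named above, ran from 1.07 through 1.22 to 1.58 FPKM in WT control mice and from 1.41 through 1.68 to 2.13 in WT KPC mice. The 2 ranges overlapped by a small margin, and the log2 difference was 0.45 (SE 0.08, adjusted p = 0.00274 by edgeR's quasi-likelihood test, Benjamini-Hochberg adjusted). In FoxP1SkmKO mice, Irf9 ran from 1.02 through 1.39 to 2.02 and from 1.15 through 1.52 to 1.96 FPKM, with a log2 difference of 0.09 (adjusted p = 0.717). Irf8 (0.55, adjusted p = 0.0103), Irf1 (0.43, adjusted p = 0.0380), and Stat2 (0.39, adjusted p = 0.0257) also rose in WT mice. The difference between genotypes was 0.35 (SE 0.11) for Irf9 and did not pass the test (unadjusted p = 0.00408, adjusted p = 0.764). Without CT26, 3 of the 8 factors were called in WT mice. The count was 2 without the second WT control mouse at CT30, the first WT KPC mouse at CT30, or the second WT KPC mouse at CT26, CT34, or CT38.

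Of the GTPases linked to Ifng, 9 of 14 tested rose in WT KPC mice and none fell, with a median log2 difference of 0.74 over the list. Gbp4, a guanylate-binding protein, ran from 0.882 through 1.39 to 2.68 FPKM in WT control mice and from 2.25 through 3.68 to 6.26 in WT KPC mice. The median of the KPC mice lay above the highest control mouse, and the difference was 1.39 (SE 0.23, adjusted p = 0.00103). Tgtp1 (1.87, adjusted p = 0.00128), Tgtp2 (1.31, adjusted p = 0.00960), Iigp1 (1.20, adjusted p = 0.0376), Ifi47 (1.10, adjusted p = 0.00475), and Gbp5 (0.74, adjusted p = 0.0261) followed in edgeR's test, and Tgtp1 and Tgtp2 are near-identical copies whose reads may be split. In FoxP1SkmKO mice none of the 14 was called, and Gbp4 had 0.60 (adjusted p = 0.240) and Tgtp1 0.88 (adjusted p = 0.183). The count in WT mice depended on single libraries. It was 5 without CT26. With each of the 48 libraries left out in turn, it was 14 without either FoxP1SkmKO control mouse at CT18, and 4 without the second WT KPC mouse at CT26, CT34, or CT38. It was 5 in 6 fits and 6 in 7 fits, each without another WT mouse. These fits also chose anew which genes to test (16356 without the second FoxP1SkmKO control mouse at CT18), and the cause was not tested. In FoxP1SkmKO mice the number was 0 in all 48 fits.

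In the MHC class I pathway, 4 of 10 genes rose in WT KPC mice, namely Tap1 (0.92, adjusted p = 0.0141) and Tap2 (0.31, adjusted p = 0.0455), which form the peptide transporter, Nlrc5 (0.86, adjusted p = 0.0315), the transactivator of the pathway, and H2-D1 (0.37, adjusted p = 0.0427), a heavy chain. The count was 1 without CT26 and 8 without either FoxP1SkmKO control mouse at CT18. It was 7 without the first WT KPC mouse at CT38, and 1 in 12 fits that each left out a single WT mouse. In FoxP1SkmKO mice it was 0, and without the second control mouse at CT18 2 genes rose, H2-D1 (0.33, adjusted p = 0.0332) and the immunoproteasome subunit Psmb9 (0.66, adjusted p = 0.0191). Of 43 other interferon-stimulated genes tested, 5 rose in WT mice, Zbp1 (1.60, adjusted p = 0.0299), Gvin1 (1.09, adjusted p = 0.00224), Oas2 (0.62, adjusted p = 0.0348), Ifitm3 (0.40, adjusted p = 0.00563), and Ly6e (0.26, adjusted p = 0.00786), with a median of 0.15 over the list. None was called in FoxP1SkmKO mice. Zbp1, a sensor of Z-form nucleic acid, was at most 0.150 FPKM in WT control mice and 0.291 in WT KPC mice. Of 10 sensors, Sting1 rose in WT mice (0.51, adjusted p = 0.0246; 0.45 with an adjusted p of 0.0746 in FoxP1SkmKO mice), and of 6 tested brakes on the pathway, Socs3 did (0.81, adjusted p = 0.0227; 0.62 with an adjusted p of 0.111). Leaving out a library took the count of other interferon-stimulated genes in WT mice from 5 to between 3 and 7 (3 without CT26). Sting1 was not called without the first WT control mouse at CT18 or CT34, the first WT KPC mouse at CT18 or CT30, or the second WT KPC mouse at CT26, CT34, or CT38. The brakes ran from 0 to 2, with 0 without the first WT control mouse at CT26, the second at CT30 or CT38, the first WT KPC mouse at CT30, or the second at CT38. In edgeR's test of the difference between genotypes, none of the genes in these lists passed.

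**Figure D5:**
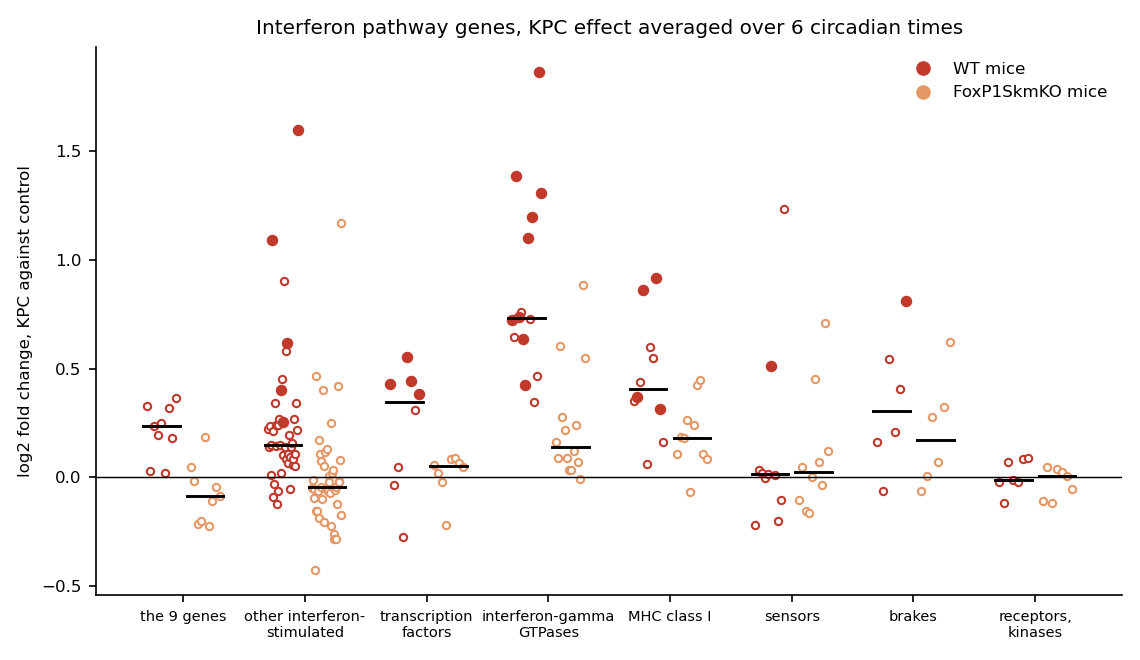
Log2 fold change of KPC against control mice, averaged over 6 times, for the members and for each list of pathway genes, in WT and in FoxP1SkmKO mice. Filled points passed edgeR's test at an adjusted p under 0.05, open points did not, and bars are list medians. In WT mice the GTPases linked to Ifng have a median of 0.74 and 9 filled points, the members a median of 0.24 and none filled, and no point is filled in FoxP1SkmKO mice.

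Without the tumor, 2 of the 43 other interferon-stimulated genes differed between the genotypes, Ifit3b, the paralog of Ifit3, which was lower in FoxP1SkmKO control mice (-0.43, adjusted p = 0.0358), and Dtx3l, a ubiquitin ligase, which was higher (0.24, adjusted p = 0.0492). Among all genes, 3.44% were called in this comparison, and 2 of 43 stood close to that share. Neither gene was called without CT26. The median log2 difference over the 43 genes was 0.09, and it was 0.03 without the second FoxP1SkmKO control mouse at CT18. Ifit3 itself had 0.05 (SE 0.18) in this comparison, and reads of the 2 paralogs may be exchanged.

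Markers of other cells were set beside these values. In WT KPC mice, the neutrophil genes S100a8 (2.83, adjusted p = 0.0315) and S100a9 (2.06, adjusted p = 0.0269) rose, 2 of 3 tested, and their list summed to a median of 2.14 CPM against 0.655 CPM in WT control mice. The number called was 0 without the first WT control mouse at CT22, CT34, or CT38, without the first WT KPC mouse at CT18 or CT30, and without the second WT KPC mouse at CT26 or CT38, and it was 1 without CT26. In FoxP1SkmKO mice the medians were 1.47 in KPC and 0.636 CPM in control mice. S100a8 had a log2 difference of 3.21 (adjusted p = 0.0848) and S100a9 2.31 (adjusted p = 0.0831) there, neither of which passed edgeR's test. None of 7 macrophage genes was called in either genotype, and their summed medians were 42.2 CPM in WT control, 47.7 in WT KPC, 44.1 in FoxP1SkmKO control, and 44.9 in FoxP1SkmKO KPC mice. The fibroblast genes Col1a1 (-0.91, adjusted p = 0.0188) and Col3a1 (-0.71, adjusted p = 0.0255) fell in WT KPC mice in edgeR's test, 2 of 4 tested, and had -0.69 (adjusted p = 0.114) and -0.71 (adjusted p = 0.0519) in FoxP1SkmKO mice. Of 8 muscle fiber genes, 1 was called higher in WT KPC mice, and of 5 endothelial genes, 1 was called lower. None of 3 plasmacytoid dendritic cell genes was called. No gene of these last lists was called in FoxP1SkmKO mice. The part of these cells in the values of the 9 genes was not tested.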

How the data were processed

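Poly-A RNA of 48 tibialis anterior muscles was sequenced. The authors aligned reads to mm39 and counted them per gene, without normalization, to give the counts they deposited. The methods name STAR and HTSeq, and the submitters' processing notes name HISAT2 2.0.5 and DESeq2 1.20.0. The deposited FPKM values were made by the authors from the counts, gene lengths, and a scaled library size. Tables of the 12 single comparisons also held the authors' normalized values, fold changes, and p-values, which were not used. Conditions came from the sample labels, and replicates are separate mice. Libraries held 14480867 to 20787784 counts.

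Counts were fitted with edgeR 4.0.16 (R 4.3.3), with 1 coefficient for each of 24 groups, TMM scaling, and filterByExpr, which kept 15637 genes. Quasi-likelihood tests were adjusted by Benjamini-Hochberg over all genes kept, with calls at an adjusted p under 0.05. Contrasts were averaged over the 6 times, and 95% intervals used 32.61 degrees of freedom. Sinusoids were fitted to FPKM in Python 3.11.15. The steps were tested on simulated data. Alternatives were DESeq2 1.42.0, RLE scaling, no filter, a fit within the genotype, a replicate block, other scales and thresholds for the sinusoid, and each library left out. Named genes were the members, Foxp1, up to 6 called genes of each list by size of change (otherwise the 3 most abundant), and the 10 genes most like the members. Other genes named for the second FoxP1SkmKO control mouse at CT18 were chosen after their values were seen. The members and lists were chosen with earlier results of these data known. Values of 1 gene of these lists are not reported here.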

Additional observations from a re-analysis of the deposited data

How the results depend on the processing

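Of the 47 counts of called members recomputed under an alternative other than leaving out a library, 40 stayed at their main value or within 1.5 times of it. Only the differences among times and the rhythm had a call in the main fit, so most of these are counts of 0 that stayed 0. A DESeq2 test without an adjusted p was taken as not called. In the averaged KPC comparison in WT mice, applying no filter on low counts gave 1 call, Bst2. At single times, fitting each genotype alone gave 1 call, Ifi27 at WT CT26 (adjusted p = 0.0473). The differences among times, with 1 call as reported, gave 0 with RLE scaling, 6 without the filter, and 2 within the genotype (Ifi27 and Bst2). The 1 rhythm call became 0 with Benjamini-Hochberg adjustment and 0 where only genes averaging 1 FPKM or more entered, so that Usp18 was not tested. The cause of these changes was not tested. With each of the 48 libraries left out, single-time calls ran from 0 to 1, calls of differences among times from 0 to 2, and rhythm calls from 0 to 1. The call of Ifi27 among times in WT control mice was made in 24 of these 48 fits, and Usp18 in FoxP1SkmKO control mice was called in 19. Averages without CT26 turned 5 differences that had not passed the test: on the log2 scale, Ifi27 (0.025) and Rsad2 (0.051) for KPC in FoxP1SkmKO mice, Irf7 (-0.068) for the difference between genotypes, Ifi27 (0.024) for FoxP1SkmKO against WT control mice, and Irf7 (0.0043) for FoxP1SkmKO against WT KPC mice.

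Leaving out a library also turned differences near 0. For KPC in WT mice these were Ifi27 (from -0.00080 to 0.058) and Isg15 (from -0.21 to 0.14). In FoxP1SkmKO mice they were Ifi27 (from -0.064 to 0.036), Bst2 (from -0.030 to 0.16), Ifit3 (from -0.36 to 0.0059), and Rsad2 (from -0.11 to 0.030). For the difference between genotypes they were Ifi27 (from -0.010 to 0.091) and Irf7 (from -0.14 to 0.17). For FoxP1SkmKO against WT control mice they were Ifi27 (from -0.070 to 0.031), Ifit3 (from -0.16 to 0.16), and Irf7 (from -0.24 to 0.076), and for KPC mice Isg15 (from -0.23 to 0.11). The replicate numbers in the labels showed no shift common to all groups. Deviations of replicate 1 libraries of different groups had a median correlation of -0.0038, from -0.32 to 0.23. Pairing within a time or a genotype was not tested. The edgeR fit with the replicate number as a block gave 1 call among times, Ifi27 (adjusted p = 0.0489). The blocked fits gave 1 rhythm call and 0 calls elsewhere. The 9 genes had on average 14.6 to 314.5 counts per library. On the log2 scale, counting alone gives an SD of 0.38 for Isg15 and 0.27 for Usp18, beside observed SDs of 0.47 and 0.30. As said above, these are not shares of the observed SD.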
